A study of Mus musculus with 9 samples.

Results

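The comparison described here sets cells that carry an extra copy of a whole chromosome segment against cells that overexpress 1 gene of that segment, Hmgn1. It uses 6 of the 9 RNA libraries of the series, 3 from Ts1Rhr cultures and 3 from HMGN1-overexpressing cultures, chosen by their labels alone, and 10878 of the 23398 rows of the deposited tables. Ts1Rhr mice are a model of partial trisomy, with 3 copies of the part of mouse chromosome 16 between Cbr1 and Fam3b instead of 2. Per the labels, the Ts1Rhr samples are FVB x C57BL/6 F1 in background and the Hmgn1-overexpressing samples are C57BL/6, and therefore the effects of genotype and of strain cannot be told apart in any value below. The wild-type group consists of littermates, with no strain named in their labels. Its 3 libraries enter the fit and are quoted beside the mutants.

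All libraries came from whole bone marrow of mice 6 to 8 weeks old, grown for 7 days in methylcellulose with interleukin-7 and collected as pooled colonies. RNA was taken from a fixed number of cells and received 1 µl of ERCC synthetic spike-in RNA diluted 1 in 1000. The cell type label reads the same for every group and names Ts1Rhr even for the other genotypes, so the groups rest on the genotype labels. Replicates are labelled biological, but the labels do not say which came from separate animals, so each p-value speaks only for the spread among these libraries. The labels name neither the promoter nor the species of the Hmgn1 allele. If it is not the mouse gene, the mouse Hmgn1 row would hold only part of its reads.

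HMGN1 is a small protein that binds nucleosomes and loosens higher-order chromatin. The segment around its gene also encodes transcription factors (Erg, Ets2), chromatin proteins (Brwd1, Morc3, Chaf1b), the kinase gene Dyrk1a, the ubiquitin ligase gene Ttc3 and several enzymes and chaperones. Pro-B cells are bone marrow B cell progenitors that depend on interleukin-7. In a trisomy the extra gene copy commonly raises the transcript of the gene in proportion, but single genes can depart from that proportion.

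Values are FPKM, fragments scaled to transcript length and to the mapped fragments of the library, which allow levels of different genes to be compared per length. The raw FPKM already have nearly equal library medians, and the normalised FPKM carry the authors' further scaling, for which the spike-ins were added. Log2 fold changes are Ts1Rhr minus HMGN1-overexpressing, from limma with its standard error (SE), on log2(raw FPKM + 0.1) or log2 normalised FPKM. Adjusted p-values are over all 10878 genes by the Benjamini-Hochberg method, with a threshold of 0.05.

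The promoters of 3 segment genes are shown because these genes span the range of response, from Ttc3 with the highest log2 fold change of the segment, through Hmgn1 itself, to Cbr1 near the bottom. Each runs 5′ to 3′ from 250 bases before to 50 after a RefSeq transcription start. They lie at chr16:94370489-94370788 (plus strand) for Ttc3, chr16:96127676-96127975 (minus strand) for Hmgn1 and chr16:93607587-93607886 (plus strand) for Cbr1, on RefSeq's GRCm38.p6 assembly, whereas the expression tables were made on mm9. Capitals mark the GC box GGGCGG and the NRF1 core CGCATGCG on either strand, which do not overlap in these windows. NRF1 is a transcription factor of many housekeeping promoters, and GC boxes bind factors of the SP family.
Ttc3: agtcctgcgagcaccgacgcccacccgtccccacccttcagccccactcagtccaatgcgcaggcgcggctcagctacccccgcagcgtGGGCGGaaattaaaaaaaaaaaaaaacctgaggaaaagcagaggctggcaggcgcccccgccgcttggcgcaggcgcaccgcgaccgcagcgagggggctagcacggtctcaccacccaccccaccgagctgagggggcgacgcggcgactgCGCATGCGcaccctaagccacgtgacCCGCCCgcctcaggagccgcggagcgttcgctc
Hmgn1: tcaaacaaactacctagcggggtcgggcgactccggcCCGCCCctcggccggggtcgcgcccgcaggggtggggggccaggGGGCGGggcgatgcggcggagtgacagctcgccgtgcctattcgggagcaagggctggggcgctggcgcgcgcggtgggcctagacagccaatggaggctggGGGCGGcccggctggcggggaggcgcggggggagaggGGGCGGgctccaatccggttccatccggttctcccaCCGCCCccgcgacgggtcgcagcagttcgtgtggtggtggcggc
Cbr1: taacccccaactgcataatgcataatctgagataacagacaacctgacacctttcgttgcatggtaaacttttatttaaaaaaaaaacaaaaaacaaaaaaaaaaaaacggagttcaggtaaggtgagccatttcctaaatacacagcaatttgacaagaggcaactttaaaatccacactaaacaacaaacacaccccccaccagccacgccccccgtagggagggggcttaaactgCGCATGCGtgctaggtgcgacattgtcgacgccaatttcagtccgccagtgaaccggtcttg
The Hmgn1 window holds 5 GC boxes and no NRF1 core, the Ttc3 window 2 GC boxes and 1 NRF1 core, and the Cbr1 window no GC box and 1 NRF1 core. Among 32851 RefSeq promoter windows of the same length, 35.7% hold a GC box and 1.87% an NRF1 core. The 16 tested segment genes all had entries in the promoter table, 25 in number. A GC box was found in 18 of these entries, an NRF1 core in 6, and the ETS core CCGGAAG, which is the motif family of Erg and Ets2, in 5, against 8.86% of all windows. The windows of Ttc3 and of Pigp are not independent: the Ttc3 window and 2 Pigp windows, which are 3 of the 6 with an NRF1 core, overlap one another. A match is only a description of the letters. The NRF1 core was added to the search after the sequences had been seen.

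No gene passed the test between the 2 mutant groups on either scale (limma, 0 of 10878 called, 0%). At an unadjusted p under 0.05 there were 475 genes on normalised FPKM (4.37%), 94 higher in Ts1Rhr (0.864%) and 381 lower (3.5%). The raw scale had 963 (8.85%), with 424 higher (3.9%) and 539 lower (4.95%). The smallest adjusted p belonged to BC048943, at 0.117 on normalised and 0.0538 on raw FPKM. With all libraries kept, other settings of the fit called between 0 and 5 genes on normalised FPKM and between 0 and 1 on raw FPKM, and leaving out single libraries gave 0 to 3 and 0 to 6. In the same fit, 62 genes (0.57%) differed between Ts1Rhr and wild type and 10 (0.0919%) between HMGN1 overexpression and wild type on normalised FPKM. The raw counts of calls were 963 (8.85%) and 4 (0.0368%). These comparisons share libraries with the one described here, so their values are given side by side only.

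Overall transcript levels overlapped between the mutants. The median log2 normalised FPKM was 3.49, 4.09 and 3.78 in HMGN1-overexpressing replicates 1 to 3 and 3.91, 3.69 and 3.54 in the Ts1Rhr libraries. All 3 Ts1Rhr libraries thus lay between the lowest and highest HMGN1-overexpressing library. The means were 3.79 ± 0.30 with HMGN1 overexpression and 3.72 ± 0.19 in Ts1Rhr (SD, n = 3), a difference of -0.07 with an SE of 0.20 (exact two-sided permutation p = 0.8, where 0.1 is the smallest possible). The sign turned without HMGN1-overexpressing replicate 2 (0.078) or Ts1Rhr replicate 3 (0.014). Across genes, 37.5% had the higher mean in Ts1Rhr on normalised FPKM and 50.3% on raw FPKM. The median log2 fold change of all genes was -0.09 and 0.0026, and gene values below called relative are counted from these medians.

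The genes of the triplicated segment had, with 2 exceptions, the higher mean in Ts1Rhr. Of 29 genes listed between Cbr1 and Fam3b, 16 had a mean of at least 1 raw FPKM over the 9 libraries and were tested. By RefSeq order, these 16 are also every tested gene between the ends of the segment. The lowest tested mean was 3.20 FPKM (Ets2) and the highest untested one 0.352 FPKM (Ripply3), so no gene lay close to the threshold. Summed over the 16 genes, raw FPKM was 300.1, 288.9 and 304.2 in the HMGN1-overexpressing libraries and 446.2, 441.0 and 457.7 in the Ts1Rhr libraries. On this scale the groups did not overlap, and each group's libraries lay close together. The normalised sums were 282.7, 396.7 and 321.8 with HMGN1 overexpression and 479.9, 437.7 and 421.1 in Ts1Rhr. These did not overlap either, but the libraries within a group lay further apart. Hmgn1, with the highest mean level of the 16 genes, weighs most in the sums.

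The median log2 fold change of the 16 genes, relative to all genes, was 0.55 on raw FPKM, a fold of 1.46, and 0.60 on normalised FPKM, a fold of 1.51. A ratio of 3 copies to 2 is 1.5, or 0.585 on the log2 scale. That ratio does not apply to Hmgn1, which is among the 16 genes, because the other group overexpresses it. The mean was higher in Ts1Rhr for 14 of the 16 on both scales, the 2 exceptions being Cbr1 and Cbr3, while a lower mean was found for 49.7% of all genes on raw and 62.5% on normalised FPKM. More than 0.5 above the median of all genes were 9 of the 16 on each scale, beside 4.35% of all genes on raw and 5.84% on normalised FPKM. Relative to the median of all genes, 14 lay above on raw FPKM and 16 on normalised FPKM. Groups did not overlap, with Ts1Rhr higher, for 9 of the 16 on raw FPKM, beside 6.89% of all genes, and for 7 on normalised FPKM, beside 1.79%. In the other direction the count was 0 of 16, beside 5.99% and 6.6%. At an unadjusted p under 0.05 and higher in Ts1Rhr there were 10 on raw FPKM and 5 on normalised FPKM, and 0 passed after adjustment (limma).

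**Figure D1:**
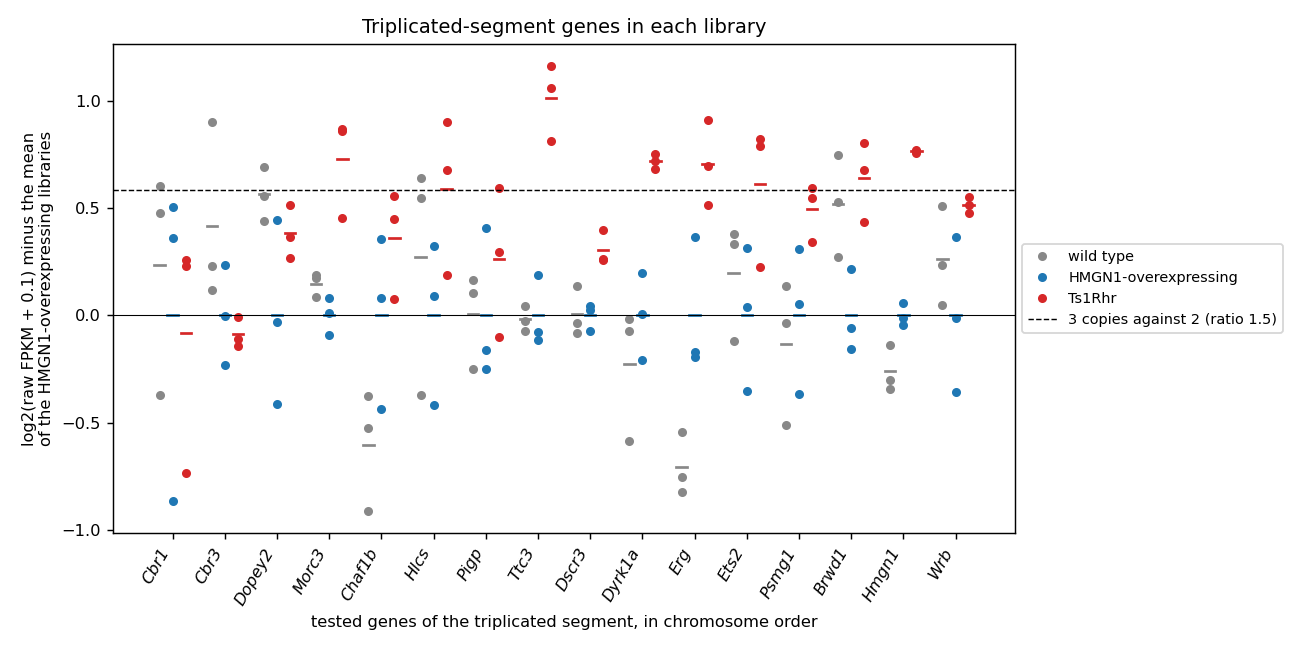
The 16 tested genes of the triplicated segment in every library, as log2(raw FPKM + 0.1) minus the mean of the 3 HMGN1-overexpressing libraries. Points are libraries, short lines group means, and the dashed line a ratio of 1.5. The Ts1Rhr points lie above every HMGN1-overexpressing point for 9 genes, among them Ttc3, Hmgn1, Dyrk1a and Erg.

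The mouse row of Hmgn1, the gene raised by design in both groups, was higher with the whole segment than with the overexpression allele. The species of that allele is not named, so its full transcript level cannot be compared from this row. Raw FPKM was 77.2, 71.9 and 73.4 in the HMGN1-overexpressing libraries and 127, 125 and 126 in Ts1Rhr, against 60.2, 67.3 and 58.5 in wild type. The groups were narrow and did not overlap. The log2 fold change was 0.76 (SE 0.12), a fold of 1.70 with a 95% interval of 1.42 to 2.04, and did not pass over all genes (limma, adjusted p = 0.173). Normalised values were 76.9, 101 and 75.9 against 127, 122 and 115, again without overlap, at a log2 fold change of 0.53 (SE 0.26; limma, adjusted p = 0.988). Against wild type the raw log2 fold change of the row was 1.03 in Ts1Rhr and 0.26 in the HMGN1-overexpressing group. The row gives the mouse transcript as counted by the authors, not the protein.

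Among the other chromatin genes, Morc3, which encodes a nuclear ATPase that binds modified histone H3, had raw FPKM of 27.2, 30.8 and 29.2 with HMGN1 overexpression and 39.8, 53.1 and 52.9 in Ts1Rhr. Ts1Rhr replicate 1 was the lowest of its group and still above the other group. The log2 fold change was 0.73 (SE 0.14; limma, adjusted p = 0.406). On normalised FPKM the Morc3 groups barely separated, at 42.51 in Ts1Rhr replicate 1 against 42.37 in HMGN1-overexpressing replicate 2. The normalised log2 fold change was 0.565 (SE 0.25; limma, adjusted p = 0.988). Brwd1, a bromodomain protein with a part in B cell development, stood at 6.33, 7.68 and 5.90 against 8.96, 10.6 and 11.6 raw FPKM. These groups did not overlap either, with a log2 fold change of 0.64 (SE 0.18; limma, adjusted p = 0.524). Wild-type Brwd1 was 11.2, 7.99 and 9.58. Wild-type replicates 1 and 3 lay in the range of the Ts1Rhr libraries and replicate 2 below it. The raw log2 fold changes against wild type were 0.12 in Ts1Rhr and -0.52 in the HMGN1-overexpressing group. Each HMGN1-overexpressing library was below every wild-type library on raw FPKM. On normalised FPKM these groups overlapped, and the log2 fold changes against wild type were 0.29 in Ts1Rhr and -0.32 with HMGN1 overexpression. Chaf1b, a subunit of the complex that deposits histones on newly copied DNA, overlapped, with 22.1, 12.7 and 18.2 against 23.5, 18.2 and 25.4 raw FPKM. Its log2 fold change was 0.36 (SE 0.22; limma, adjusted p = 0.632), and its raw level lay above wild type by 0.97 in Ts1Rhr and 0.60 with HMGN1 overexpression.

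The ETS factor gene Erg, a regulator of blood stem and progenitor cells, had 12.1, 12.3 and 17.8 raw FPKM with HMGN1 overexpression and 22.5, 19.8 and 26.1 in Ts1Rhr. The groups did not overlap, and both lay above the wild-type libraries, at 7.78, 9.47 and 8.17. The log2 fold change between the mutants was 0.71 (SE 0.18; limma, adjusted p = 0.492). Erg was thus graded over the 3 groups, with raw log2 fold changes against wild type of 0.71 with HMGN1 overexpression and 1.41 in Ts1Rhr. Its neighbour Ets2, of the same family, was low, with 3.20, 1.98 and 2.63 against 4.601, 4.49 and 3.01 raw FPKM. Ts1Rhr replicate 3 fell inside the other group, and the log2 fold change was 0.61 (SE 0.27; limma, adjusted p = 0.552).

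Dyrk1a encodes a protein kinase that acts in cell cycle exit. Its raw FPKM was 21.99, 18.9 and 25.1 with HMGN1 overexpression and 35.2, 36.9 and 36.1 in Ts1Rhr. The Ts1Rhr libraries were nearly equal and all above the other group, with a log2 fold change of 0.72 (SE 0.17; limma, adjusted p = 0.452). Ttc3, which encodes a ubiquitin ligase, differed most within the segment. It stood at 18.4, 14.9 and 15.3 with HMGN1 overexpression and at 28.4, 36.2 and 33.8 raw FPKM in Ts1Rhr, a log2 fold change of 1.01 (SE 0.14; limma, adjusted p = 0.111). The fold was 2.02, with a 95% interval of 1.62 to 2.51 that lies above 1.5. On normalised FPKM the log2 fold change was 0.88 (SE 0.22; limma, adjusted p = 0.977), and that interval, from 1.34 to 2.55, holds 1.5. HMGN1-overexpressing and wild-type cells had nearly the same Ttc3 level, since wild type lay at 15.3, 15.9 and 16.6 raw FPKM. Without HMGN1-overexpressing replicate 1, Ttc3, raw FPKM, passed the test (limma, adjusted p = 0.0486), with a log2 fold change of 1.11.

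Wrb, Psmg1 and Dscr3 act in the handling of proteins. Wrb, a receptor for the insertion of tail-anchored membrane proteins, had 21.1, 27.4 and 16.6 against 31.2, 30.5 and 29.7 raw FPKM, without overlap (log2 fold change 0.52, SE 0.19; limma, adjusted p = 0.541). Psmg1, a chaperone of proteasome assembly, had 6.41, 4.77 and 7.67 against 9.37, 7.85 and 9.06, also without overlap (log2 fold change 0.49, SE 0.22; limma, adjusted p = 0.552). On normalised FPKM both genes overlapped. Dscr3, a component of a complex that recycles endosomal cargo, was narrow within groups, at 55.7, 51.3 and 54.9 against 71.1, 64.6 and 64.5 raw FPKM. These groups did not overlap, but the fold of 1.24 had a 95% interval of 1.02 to 1.49, which lies below 1.5 (log2 fold change 0.31, SE 0.12; limma, adjusted p = 0.541). On normalised FPKM the Dscr3 libraries overlapped and the interval of the fold, from 0.741 to 1.57, held 1.5.

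Hlcs, the enzyme that attaches biotin to carboxylases, had 3.54, 3.01 and 2.08 against 3.22, 5.35 and 4.56 raw FPKM, a log2 fold change of 0.59 (SE 0.32; limma, adjusted p = 0.599). Ts1Rhr replicate 1 lay within the other group on raw FPKM, whereas the normalised values did not overlap. Dopey2, linked to membrane traffic, and Pigp, a subunit of the enzyme for the first step of GPI anchor synthesis, overlapped on both scales, with raw log2 fold changes of 0.38 (SE 0.21) and 0.26 (SE 0.22; limma, adjusted p = 0.613 and 0.72). Pigp and Ttc3 start from opposite strands of the same stretch of DNA. One of the Pigp promoter windows shares 288 of its bases with the Ttc3 window printed above, yet the raw log2 fold change was 0.26 for Pigp against 1.01 for Ttc3. No source used here says whether the counting used strand, so reads where the genes overlap may not be separated.

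Cbr1 and Cbr3, which encode carbonyl reductases and stand at the proximal end of the segment, did not follow the other genes. Cbr1 had 2.19, 5.25 and 5.82 raw FPKM with HMGN1 overexpression and 4.89, 2.41 and 4.79 in Ts1Rhr, so its spread within groups was large. Cbr3 had 3.15, 3.73 and 2.67 against 3.14, 2.92 and 2.85. The raw log2 fold changes were -0.08 (SE 0.41) and -0.09 (SE 0.25; limma, adjusted p = 0.96 and 0.928). For Cbr1, raw FPKM, the sign turned without HMGN1-overexpressing replicate 2 (0.098) or 3 (0.17) or without Ts1Rhr replicate 2 (0.25). For Cbr3, raw FPKM, it turned without HMGN1-overexpressing replicate 2 (0.031). For Cbr3 the 95% interval of the raw fold, 0.646 to 1.37, lies below 1.5, whereas for Cbr1 it runs from 0.508 to 1.76 and holds it. Both are close paralogs, so the authors' counting may have split reads between them. In all, the interval held 1.5 for 13 of the 16 genes on raw FPKM and for 16 on normalised FPKM, where the SE was larger (median 0.28 against 0.20). Hmgn1 is counted on both scales, although 1.5 is not its copy ratio in this comparison.

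The 13 untested genes of the segment were low or listed at 0. Sim2, Kcnj6 and Bace2 were listed at 0 raw FPKM in every library of both groups. Pcp4, a calmodulin-binding protein gene of neurons, was listed at 0 in the 3 HMGN1-overexpressing libraries and at 0.376, 0.347 and 0.197 raw FPKM in Ts1Rhr, with 1.22, 0.889 and 0 in wild type. It is named after its values were seen. B3galt5, Ripply3, Lca5l, Kcnj15 and the others overlapped between the groups, with means under 1 FPKM.

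In gene order, the flanks of the segment lay closer to the median of all genes. Of the 15 tested genes on the proximal side, 7 lay above the median of all genes on raw FPKM and 6 on normalised FPKM, with medians relative to all genes of -0.16 and -0.03. On the distal side, 4 tested genes remained before the end of the chromosome (Prdm15, C2cd2, Zbtb21 and A630089N07Rik), with medians of 0.05 and 0.17 and 4 of 4 above the median of all genes on both scales. Setd4, the proximal neighbour of Cbr1, had a relative raw log2 fold change of -0.27 (SE 0.43), and Prdm15, the first distal gene, one of 0.09 (SE 0.30). The proximal genes included Runx1, a transcription factor of blood cells, with 24.9, 21.9 and 27.0 raw FPKM in the HMGN1-overexpressing libraries and 28.6, 47.5 and 37.1 in Ts1Rhr. Runx1 lies outside the triplicated segment and its groups did not overlap, at a log2 fold change of 0.59 (SE 0.19; limma, adjusted p = 0.537). Son, which encodes a splicing factor, was also without overlap on raw FPKM (log2 fold change 0.47, SE 0.19; limma, adjusted p = 0.541), as was Gart. Rcan1, an inhibitor of calcineurin that is often discussed with Dyrk1a, went the other way, with 7.65, 11.8 and 8.17 against 6.94, 6.65 and 4.599 raw FPKM (log2 fold change -0.59, SE 0.22; limma, adjusted p = 0.541). Of the 15 proximal genes, 3 were higher and 1 lower without overlap on raw FPKM, beside 6.89% and 5.99% of all genes. On normalised FPKM it was 1 higher, Runx1, and 1 lower, Atp5o, beside 1.79% and 6.6%, while Son, Gart and Rcan1 overlapped. Because the labelled background is FVB x C57BL/6 F1 for Ts1Rhr and C57BL/6 for the other group, differences in the flanks cannot be told apart from background.

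**Figure D2:**
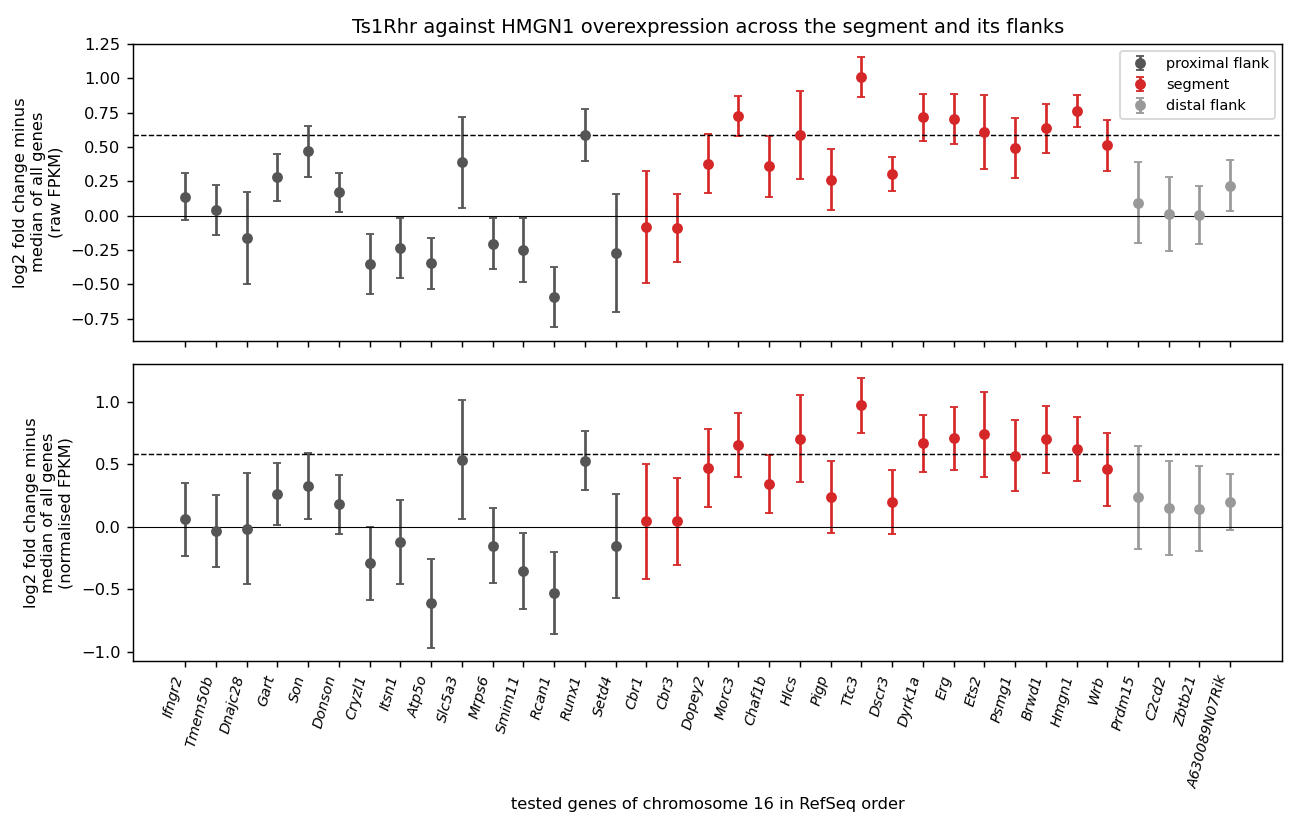
Log2 fold change of Ts1Rhr minus HMGN1-overexpressing, less the median of all genes, for tested genes in RefSeq order along chromosome 16, on raw (top) and normalised FPKM (bottom). Bars are standard errors and the dashed line is a ratio of 1.5. The 14 segment genes after Cbr3 lie above 0 on both scales. The 15 proximal genes lie on both sides of 0, and the 4 distal genes lie above 0, by at most 0.22 on raw and 0.24 on normalised FPKM.

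Genes that work with segment products outside the segment were compared as lists, with 0 called in each (limma). All medians here are relative to all genes, on raw and then normalised FPKM. The partners of CHAF1B in histone deposition (Chaf1a, Rbbp4, Asf1a, Asf1b, Hat1, Nasp and Hira) lay at 0.16 and 0.08. On either scale 0 of 7 were free of overlap, beside 6.89% of all genes higher and 5.99% lower on raw FPKM. On normalised FPKM those shares were 1.79% and 6.6%. Nasp, a histone chaperone, had the largest raw log2 fold change of the 7 partners, 0.34 (SE 0.17; limma, adjusted p = 0.587). The other proteasome assembly chaperones lay at -0.18 and -0.21 (7 genes), with Psmd9 lower and without overlap at 46.1, 46.5 and 43.3 against 37.8, 39.3 and 39.4 raw FPKM (limma, adjusted p = 0.686). The genes of tail-anchored protein insertion lay at -0.01 and -0.11 (6 genes), those of the first step of GPI anchor synthesis at 0.15 and 0.20 (6 genes), and the biotin-dependent carboxylases with biotinidase at -0.11 and -0.05 (5 genes). Several of these signs turned without single libraries. On raw FPKM the proteasome chaperones lay at 0.01 without Ts1Rhr replicate 2, and tail-anchored insertion at 0.05 without HMGN1-overexpressing replicate 1 and at 0.003 without Ts1Rhr replicate 2. On normalised FPKM the carboxylases lay at 0.06 without HMGN1-overexpressing replicate 2 or without Ts1Rhr replicate 3.

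The list around Dyrk1a, with the DREAM repressor complex and the E2F factors, lay at 0.06 and 0.12 (23 genes). E2f1, an activator of S phase genes, was without overlap and lower in Ts1Rhr on both scales, at 12.1, 10.8 and 12.7 against 8.27, 7.86 and 8.60 raw FPKM (log2 fold change -0.52, SE 0.17; limma, adjusted p = 0.537). Lin37, a subunit of the DREAM complex, had 11.9, 10.9 and 14.6 against 10.6, 7.98 and 6.21 raw FPKM (log2 fold change -0.61, SE 0.23; limma, adjusted p = 0.541). Dyrk1b, the closest relative of Dyrk1a, had a raw log2 fold change of 0.20 (SE 0.18; limma, adjusted p = 0.732). The ETS and RUNX factors besides Erg and Ets2 lay at 0.04 and 0.01 (15 genes), and 3 of them were higher without overlap on raw FPKM, namely Runx1, Gabpa and Elf1, beside 6.89% of all genes. On normalised FPKM it was 1 of 15, beside 1.79%. Gabpa, an ETS factor of housekeeping genes, had 32.0, 32.5 and 36.7 against 38.4, 53.9 and 39.1 raw FPKM (log2 fold change 0.36, SE 0.15; limma, adjusted p = 0.551). Without HMGN1-overexpressing replicate 2 the medians turned to -0.01 and -0.04 for the DREAM list and to -0.01 and -0.05 for the ETS and RUNX list, and the latter was -0.03 on normalised FPKM without Ts1Rhr replicate 2.

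Of the HMGN family itself 4 genes were tested, Hmgn1 among them. Hmgn2 had 665, 761 and 833 raw FPKM with HMGN1 overexpression and 789, 2077 and 981 in Ts1Rhr, where replicate 2 stood far above the others (log2 fold change 0.64, SE 0.30; limma, adjusted p = 0.565). On normalised FPKM its log2 fold change was 0.25 (SE 0.42). Hmgn3 had 17.0, 19.8 and 38.8 against 42.4, 47.1 and 36.0 raw FPKM (log2 fold change 0.82, SE 0.28; limma, adjusted p = 0.541), with HMGN1-overexpressing replicate 3 inside the Ts1Rhr range. Hmgn5, an X-linked member, overlapped widely, from 54.2 to 188 against 87.6 to 153 raw FPKM. HMGN genes have many pseudogene copies, so their counts are uncertain.

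The markers of the labelled cell type were present in both groups. Of 31 pro-B identity genes, 30 were tested, and their raw FPKM summed to between 4418 and 6041 in the HMGN1-overexpressing libraries and between 4833 and 5567 in Ts1Rhr. Their relative medians were 0.14 on raw and 0.04 on normalised FPKM (limma, 0 called). Above the median of all genes were 22 of the 30 on raw and 18 on normalised FPKM. Without overlap were 3 higher, Erg among them, and 1 lower on raw FPKM, beside 6.89% and 5.99% of all genes. On normalised FPKM it was 3 higher and 6 lower, beside 1.79% and 6.6%. The normalised median was below 0 without HMGN1-overexpressing replicate 2 (-0.08) or Ts1Rhr replicate 3 (-0.07). The 1 lower gene on raw FPKM was Vpreb3, an assembly factor of the pre-B cell receptor, at 1299, 953 and 1385 against 835, 635 and 942 raw FPKM (log2 fold change -0.59, SE 0.22; limma, adjusted p = 0.541). It was among the 6 lower genes on normalised FPKM. Kit, a receptor of early progenitors, had a raw log2 fold change of 0.25 (SE 0.26; limma, adjusted p = 0.773).

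Myeloid transcripts were abundant in both groups. Raw FPKM over 31 tested myeloid markers summed to 23891, 33911 and 16410 in the HMGN1-overexpressing libraries and to 20679, 19371 and 18199 in Ts1Rhr, so the groups overlapped. Their relative median was -0.29 on raw and -0.41 on normalised FPKM, with 27 and 26 of 31 below the median of all genes. Of the 31, 0 were called (limma). HMGN1-overexpressing replicate 2 carried much of this, for without it the medians were -0.07 and -0.21, with 18 and 21 markers below. Without HMGN1-overexpressing replicate 3 they were -0.58 and -0.71, with 30 of 31 below on both scales. Lower without overlap were 2 of the 31 on each scale, Fcgr1 and C1qa, beside 5.99% of all genes on raw and 6.6% on normalised FPKM. Higher without overlap were 0, beside 6.89% and 1.79%. Fcgr1, an Fc receptor of macrophages, was low, at 2.68, 2.12 and 1.45 against 1.35, 0.672 and 0.304 raw FPKM (log2 fold change -1.47, SE 0.46; limma, adjusted p = 0.536). C1qa, a complement gene of macrophages, had 1.78, 1.95 and 1.55 against 0.977, 0.915 and 0.683 raw FPKM (log2 fold change -0.96, SE 0.37; limma, adjusted p = 0.541). In pooled colonies, fewer cells of a type and less RNA per cell cannot be told apart. With the myeloid score of each library in the fit, the segment median was 0.56 on raw and 0.59 on normalised FPKM. Without that score it was 0.55 and 0.60. Whether cell composition contributes to the segment difference was not tested. The log2 fold change with that score in the fit was 0.75 for Hmgn1, raw FPKM, and 0.98 for Ttc3, raw FPKM (limma, adjusted p = 0.457 for each). Of the markers of other cell types, 6 of 8 dendritic cell, 7 of 11 stromal, 2 of 10 T and NK cell, 1 of 9 erythroid, 1 of 6 megakaryocyte and 0 of 6 mast cell and basophil genes reached the level for testing. Summed raw FPKM of the tested dendritic cell markers ran from 85.8 to 102 with HMGN1 overexpression and from 86.9 to 91.4 in Ts1Rhr, and that of the stromal markers from 5.81 to 17.6 and from 7.02 to 22.1, so both overlapped. The globin genes Hba-a1, Hba-a2, Hbb-b1 and Hbb-b2 were listed at 0, but so was Hmgcs1, a widely used enzyme gene of cholesterol synthesis, and a listed 0 can be a failed estimate.

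The 37 DNA replication genes had relative medians of 0.13 and 0.06, with 0 called (limma). Without overlap were 9 higher and 1 lower on raw FPKM, beside 6.89% and 5.99% of all genes, and 2 and 2 on normalised FPKM, beside 1.79% and 6.6%. Mcm10, which helps to start replication forks, had 13.9, 10.7 and 16.4 against 17.5, 24.5 and 18.8 raw FPKM (log2 fold change 0.57, SE 0.19; limma, adjusted p = 0.537). The 25 mitosis genes lay at 0.12 and 0.04, and the second of these turned to -0.05 without HMGN1-overexpressing replicate 2. Without overlap were 4 higher and 1 lower on raw FPKM, beside 6.89% and 5.99% of all genes. On normalised FPKM the counts were 1 and 2, beside 1.79% and 6.6%. Ndc80, a kinetochore gene, was higher in Ts1Rhr without overlap on both scales, with 69.1, 39.0 and 48.9 against 71.2, 109 and 80.8 raw FPKM (log2 fold change 0.75, SE 0.23; limma, adjusted p = 0.527). Birc5, which encodes survivin of the chromosomal passenger complex, went the other way on both scales, with 160.2, 140 and 170 against 136, 87.4 and 124 raw FPKM (log2 fold change -0.46, SE 0.20; limma, adjusted p = 0.551). The polycomb repressive complex 2 list lay at 0.17 and 0.10 (11 genes).

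Some lists depended on the scale. The 55 tested cytosolic ribosomal protein genes lay at -0.03 on raw and -0.30 on normalised FPKM. The raw value was 0.13 and the normalised one -0.09 without Ts1Rhr replicate 2, and the raw one was 0.04 without HMGN1-overexpressing replicate 3. The 24 respiratory chain genes lay at -0.06 and -0.25. The type I interferon response lay at -0.21 and -0.11 (16 genes) and 24 genes reported to vary between inbred strains at -0.12 and -0.06, with 0 called in each (limma). Without Ts1Rhr replicate 3 the strain list lay at 0.01 and 0.001. Differences between strains can go in either direction for single genes, so this median does not measure their size.

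**Figure D3:**
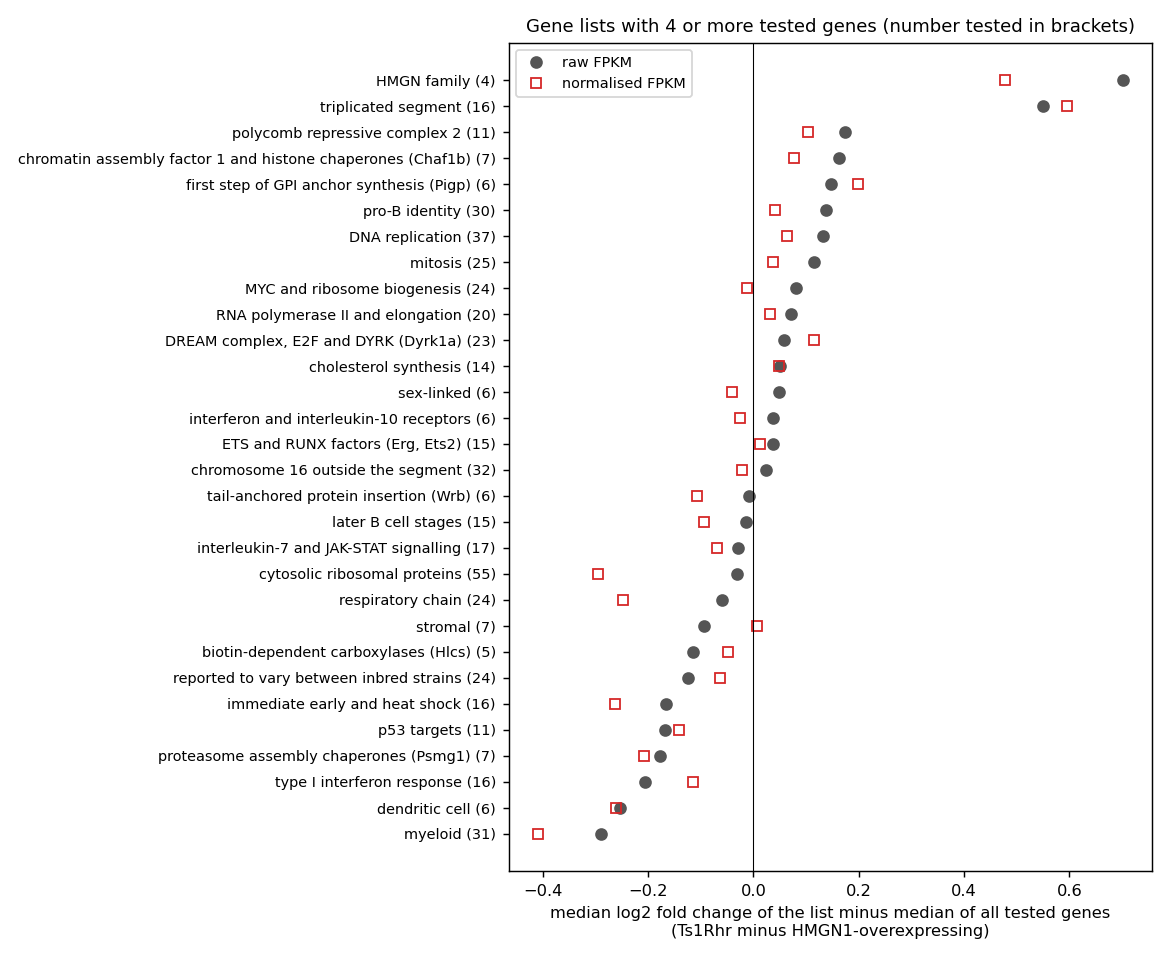
Median log2 fold change of each gene list with at least 4 tested genes, less the median of all genes, on raw (filled circles) and normalised FPKM (open squares). The triplicated segment (0.55 and 0.60) and the HMGN family, which includes Hmgn1, lie apart on the positive side, and the myeloid markers (-0.29 and -0.41) lie lowest.

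The genes outside the segment with the smallest p-values were chosen after their values were seen, and none passed. BC048943 had normalised FPKM of 0.259, 0.712 and 0.898 with HMGN1 overexpression and 7.24, 3.61 and 4.74 in Ts1Rhr, with 1.83, 2.21 and 1.38 in wild type. The groups were far apart, with wild type between them, and the log2 fold change was 3.18 (SE 0.52; limma, adjusted p = 0.117). The values for BC048943, normalised FPKM, without HMGN1-overexpressing replicate 2 or 3 were adjusted p = 0.0465 and 0.0142 (limma). Mid1, a gene for a microtubule-associated ubiquitin ligase at the pseudoautosomal border of the mouse X chromosome, had 6.39, 45.2 and 39.1 against 3.75, 3.22 and 1.42 normalised FPKM. Here the HMGN1-overexpressing libraries were high, replicate 1 less so, while Ts1Rhr and wild type (2.70, 2.12 and 2.34) were alike in range (log2 fold change -3.12, SE 0.55; limma, adjusted p = 0.152). Without HMGN1-overexpressing replicate 1, Mid1, normalised FPKM, passed the test (log2 fold change -4.03; limma, adjusted p = 0.000364). Mid1 was on the list of genes reported to vary between inbred strains, so strain and genotype cannot be told apart for it.

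Fgf13, an intracellular relative of the fibroblast growth factors, had 6.05, 6.31 and 9.17 normalised FPKM with HMGN1 overexpression and 16.3, 13.9 and 11.9 in Ts1Rhr, against 2.51, 3.48 and 2.11 in wild type. The 3 groups were graded without overlap, and the difference between the mutants was 0.98 (SE 0.28; limma, adjusted p = 0.988). Scd1, a fatty acid desaturase, had 30.3, 27.2 and 32.2 against 45.8, 52.8 and 41.6 normalised FPKM (log2 fold change 0.64, SE 0.23; limma, adjusted p = 0.988). It was graded in the same order, since wild type lay at 16.8, 23.2 and 16.9. Zfp800, a zinc finger gene, had 71.7, 71.5 and 35.9 against 84.2, 138 and 105 (log2 fold change 0.91, SE 0.30; limma, adjusted p = 0.988). Rnaseh2c, a subunit of the enzyme that removes ribonucleotides from DNA, had 6.33, 12.5 and 11.5 against 16.5, 17.2 and 20.3, and Magohb, of the exon junction complex, 4.83, 9.45 and 8.37 against 16.1, 13.6 and 10.5 normalised FPKM.

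Several genes were lower in Ts1Rhr without overlap. Ly6d, a surface protein of early B lineage cells, had 518, 359.6 and 327 normalised FPKM with HMGN1 overexpression and 203, 104 and 159 in Ts1Rhr, with 344, 383 and 180.5 in wild type (log2 fold change -1.40, SE 0.35; limma, adjusted p = 0.988). Ifitm1, an interferon-induced membrane protein, had 7.63, 11.0 and 16.6 against 6.62, 3.26 and 2.02 (log2 fold change -1.67, SE 0.37; limma, adjusted p = 0.549). Nme3, a nucleoside diphosphate kinase, had 9.15, 8.03 and 8.28 against 4.14, 3.12 and 2.78 (log2 fold change -1.36, SE 0.29; limma, adjusted p = 0.451), and Cxx1a 10.7, 9.23 and 7.24 against 5.04, 3.17 and 3.11 (log2 fold change -1.28, SE 0.28; limma, adjusted p = 0.451). Nfu1 and Glrx5, both of which act in the assembly of mitochondrial iron-sulfur clusters, were also lower. Nfu1 had 38.2, 42.6 and 44.9 against 25.3, 20.7 and 13.4 (log2 fold change -1.13, SE 0.28; limma, adjusted p = 0.966), and Glrx5 26.0, 34.4 and 28.5 against 16.5, 15.02 and 18.1 (log2 fold change -0.84, SE 0.25; limma, adjusted p = 0.988). Apobec1, a cytidine deaminase, had 87.2, 83.8 and 65.3 against 43.3, 43.5 and 34.0 normalised FPKM (log2 fold change -0.97, SE 0.27; limma, adjusted p = 0.988). H2-L, a class I histocompatibility row, had 84.5, 42.6 and 114 against 40.5, 4.01 and 16.02 normalised FPKM, and its raw values overlapped. Such rows share reads with close paralogs and differ in sequence between strains.

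**Figure D4:**
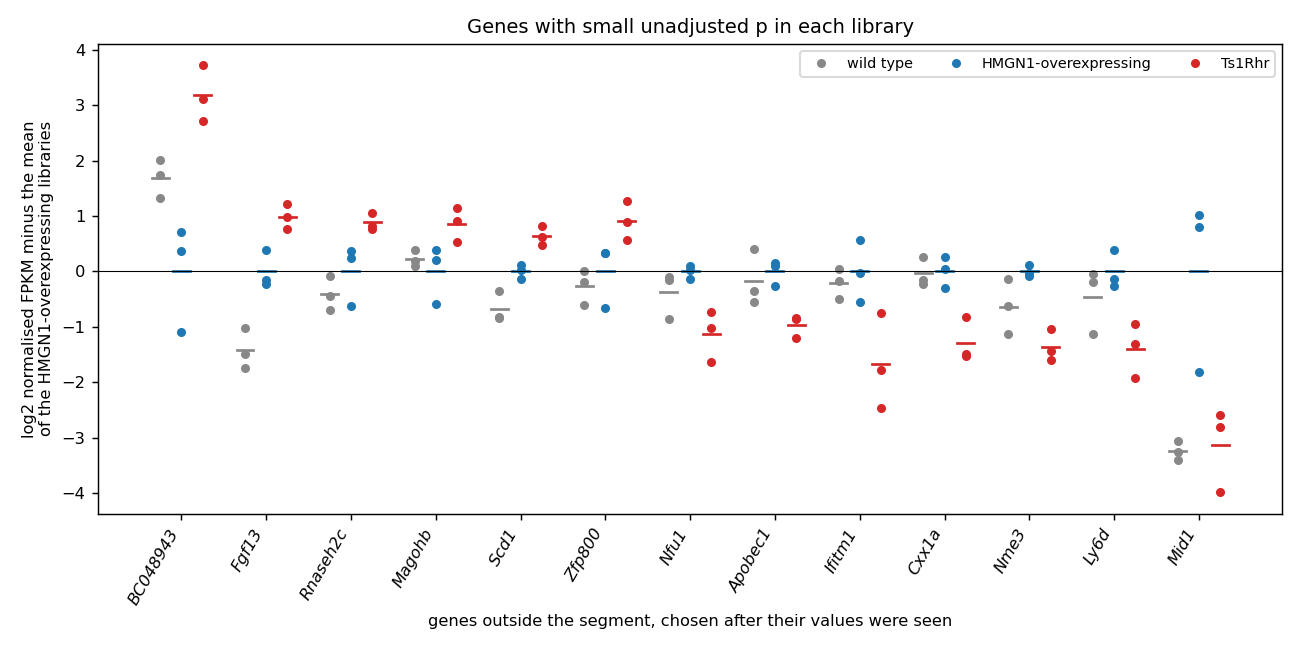
Log2 normalised FPKM of 13 genes outside the segment in every library, minus the mean of the 3 HMGN1-overexpressing libraries. Points are libraries and short lines group means. Wild type lies with Ts1Rhr for Mid1 and between the mutant groups for BC048943.

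**Figure D5:**
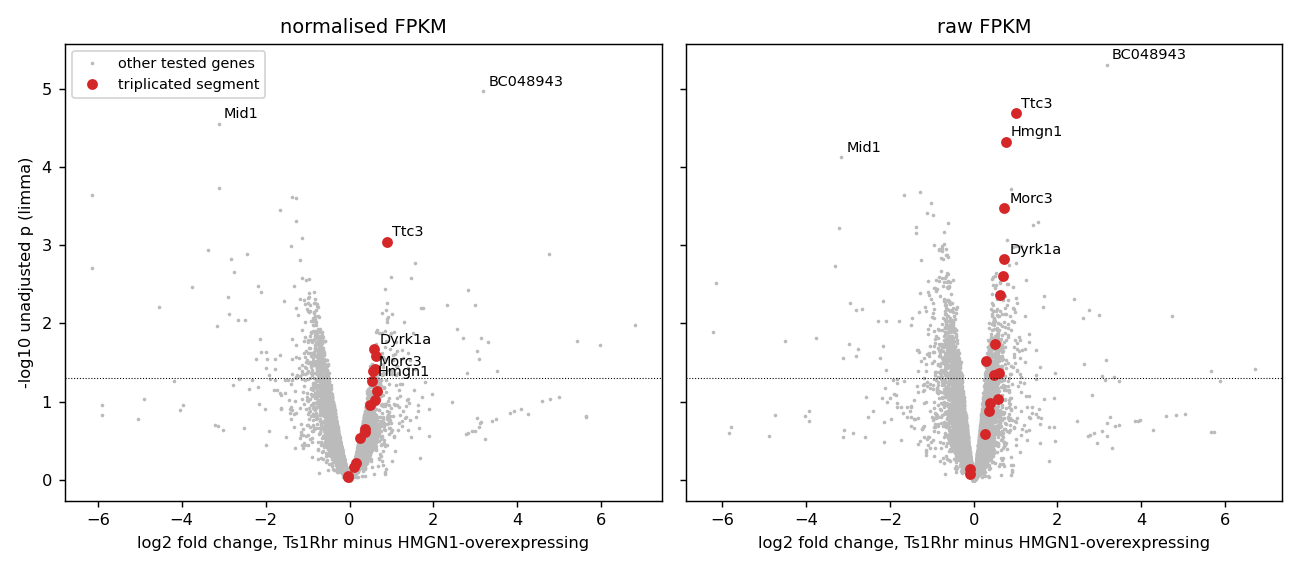
Log2 fold change (Ts1Rhr minus HMGN1-overexpressing) against -log10 of the unadjusted limma p for 10878 genes on normalised (left) and raw FPKM (right), with the 16 segment genes in red. The dotted line is an unadjusted p of 0.05, which 5 segment genes pass on normalised and 10 on raw FPKM, and no gene passes after adjustment.

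Ts1Rhr replicate 3 differed from the other 5 libraries in sex-linked transcripts. Ddx3y, a Y-linked gene, stood there at 41.8 raw FPKM, at 0.0642 and 0.0113 in Ts1Rhr replicates 1 and 2 and at 0 in the 3 HMGN1-overexpressing libraries, while Xist was 0.443 there and between 125 and 193 in the other 5. Its cells thus differ in sex from those of Ts1Rhr replicates 1 and 2 and came from another animal. Without this library the segment median was 0.53 on raw and 0.57 on normalised FPKM. Rows listed at exactly 0.01 can be failed estimates. Rpl26, a ribosomal protein gene, was listed at 0.01 raw FPKM in all 3 HMGN1-overexpressing libraries and in Ts1Rhr replicate 3, so its difference is not described.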

How the data were processed

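The libraries hold polyadenylated RNA of 9 mouse bone marrow cultures, 3 per group, of which 6 form the comparison. The authors deposited 2 tables of FPKM, one raw and one normalised. Per the submitters' processing notes, the tools were HISAT and Cufflinks 2.0.0 and the build was mm9. No source used here says how the normalised FPKM were computed. Per the labels' protocols, spike-ins were added for scaling per cell. Neither table holds counts, so the depth of the libraries is unknown, and 13023 to 14193 genes per library were above 0 in the 6 libraries.

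Of 23398 rows, 92 spike-in and 27 date-named rows were left out, and 10878 genes averaging 1 raw FPKM or more across the 9 libraries were tested with limma 3.58.1 in R 4.3.3 (intensity trend, all 3 groups in the model, two-sided, adjusted by Benjamini-Hochberg, threshold 0.05). Raw values entered as log2(FPKM + 0.1), so folds of low genes are understated. The normalised values have a floor near 0.1 as well, with the same limit. Sim2, for instance, at 0 raw FPKM, was listed at 0.09855 to 0.1017 normalised FPKM. The script was tested on simulated data. A library's overall level is its median log2 normalised FPKM over the tested genes. The myeloid score is the mean log2 level of the myeloid markers. Gene order and promoters came from RefSeq on GRCm38.p6.

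The members and gene lists, the list of segment genes included, were chosen with earlier results of these data known. Named are all tested segment genes, up to 15 neighbours a side, the partner genes, and from each list the called members or else the 2 with the largest log2 fold change. Genes with small p outside these, averaging 5 normalised FPKM or more over the 6 libraries, BC048943, which has the smallest p but a lower level, and examples of overlap within lists were picked after their values were seen. Alternatives changed the scaling, pseudocount, filter, trend, covariate, replicate block and libraries. The labels do not tie equal replicate numbers to a litter, batch or day. Whether the samples were paired is unknown, and the main fit used no block.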

Additional observations from a re-analysis of the deposited data

How the results depend on the processing

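The direction of the segment medians held in every setting run. On normalised FPKM the median of 0.60 was 0.51 with the mean in its place and 0.54 with a pseudocount of 1, and on raw FPKM the 0.55 was 0.47 with a pseudocount of 1. Leaving out single libraries of either mutant group gave 0.53 to 0.60 and 0.49 to 0.60. The overall level moved between -0.22 and 0.08 without single libraries, turning positive without HMGN1-overexpressing replicate 2 (0.078) or Ts1Rhr replicate 3 (0.014). With 1 spike-in factor per library it was -0.16 (exact permutation p = 0.7).

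Calls on normalised FPKM were 0, but 1 with a pseudocount of 1 (BC048943) and 0 to 3 without single libraries, with 2 without HMGN1-overexpressing replicate 1 (Il1r1 and Mid1), 3 without replicate 2 or 3 of that group and 1 without Ts1Rhr replicate 2 or 3. On raw FPKM there was 1 call with equal sums, 1 with no intensity trend and 1 with a pseudocount of 0.01, each BC048943, and 0 to 6 without single libraries. The 6 came without HMGN1-overexpressing replicate 1 and were BC048943, Il1r1, Mid1, Scand1, Thy1 and Ttc3, against 2 without its replicate 3 and 1 without its replicate 2 or without Ts1Rhr replicate 3. Beside these calls on normalised FPKM and calls on raw FPKM, unadjusted counts under 0.05 ranged from 220 to 886 and from 563 to 1337.

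With the replicate number as a block, calls on normalised FPKM numbered 5 (BC048943, H2-L, Mid1, Snora81 and Snord15a) and calls on raw FPKM 0, with 522 and 872 at an unadjusted p under 0.05. The overall level stayed at -0.07 (exact permutation p = 1) and the segment medians at 0.60 and 0.55. Deviations from the group mean in libraries with equal numbers had correlations of -0.09, -0.0044 and -0.03 on normalised FPKM. On raw FPKM these were -0.07, 0.0011 and -0.0076. Deviations within a group offset one another, so these correlations cannot decide whether the samples were paired.

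Among single genes, Cbr1 turned positive on normalised FPKM with equal library medians (0.028), with the myeloid covariate (0.049) and without HMGN1-overexpressing replicate 2 or 3 or Ts1Rhr replicate 2 (range over single libraries -0.66 to 0.30), and on raw FPKM without the same libraries (-0.51 to 0.25). Cbr3 turned positive with equal medians (0.026 normalised), with the myeloid covariate (0.21 normalised, 0.089 raw) and without HMGN1-overexpressing replicate 2 or, on normalised FPKM, Ts1Rhr replicate 3 (-0.23 to 0.22 normalised, -0.20 to 0.031 raw). Pigp on normalised FPKM ranged from -0.11 to 0.34, turning without HMGN1-overexpressing or Ts1Rhr replicate 1. The cause was not tested in any of these. Counts of segment genes above the median of all genes were 14 to 16 of 16 without any single library, a check added after seeing the data. The count of myeloid markers below that median was 17 of 31 on raw FPKM with the myeloid covariate. That covariate is the mean level of these same markers, so the lower count follows from its construction and tests nothing. The number of libraries limits precision: the median SE of a log2 fold change was 0.29 on normalised and 0.20 on raw FPKM.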
